A study of Mus musculus with 6 samples.

Results

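Dlx5, Dlx6, Dync1i1 and Sem1 lie close together on mouse chromosome 6, in the interval whose human counterpart is disrupted in split hand/foot malformation. They are 4 of the 56953 features in the deposited count table and of the 14550 that could be tested, and were picked by name and position. They were proposed with the difference between the genotypes already known, in particular the lower counts of Dlx6 and Dync1i1 in the mutant, so that difference is described below and supports nothing by itself. The counts come from tailbud tissue of mouse embryos at embryonic day 9.5, with 3 wild-type libraries and 3 libraries from embryos homozygous for Fgfr1 FCPG, an allele of the fibroblast growth factor receptor Fgfr1 with point mutations at the residues to which its signaling effectors bind. The labels give neither the number of embryos per library nor their litters. The design sets embryos with and without this canonical output of the receptor side by side. Libraries are called below by genotype and replicate number, such as wild type 1 or mutant 2.

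Dlx5 and Dlx6 encode related homeodomain transcription factors of the Distal-less family, which are needed in the apical ectodermal ridge of the limb bud, the lower jaw, the inner ear and the skeleton. The genes are transcribed toward each other and share enhancers, some of which lie between them and others within the exons and introns of Dync1i1, several genes away. Dync1i1 itself encodes an intermediate chain of cytoplasmic dynein that is best known from neurons, and Sem1 encodes a small acidic subunit of the proteasome lid that also binds the DNA repair protein Brca2. Slc25a13, a mitochondrial aspartate-glutamate carrier, lies between Dync1i1 and Sem1, and the long noncoding RNA gene Dlx6os1 runs on the opposite strand through Dlx6.

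Libraries held 16984568 to 27316475 counts. In much of this table a feature's name does not match the reads counted in it: a mean of 10 CPM (counts scaled to a common library size) was reached by 294 of 909 genes that nearly all cells express. On 2 stretches such genes stood at ordinary levels, from Rps20 to Snx30 on chromosome 4, with 17 of 17, and from Vps50 to Cnot4 on chromosome 6, with 12 of 12. The stretches were defined by the detection of these same genes, so these counts largely follow from that choice. All 4 genes described here lie in the stretch of chromosome 6, also with a detection minimum of 20 CPM. Apart from Y-linked genes and an alternative fit, only values of features named in these 2 stretches are used below. That fit left features named as erythroid or mitochondrially encoded, also outside both stretches, out of the library sizes. None of 8 tailbud markers such as T, Tbx6 and Msgn1 lay in them, so the labelled tissue could not be checked. Transcripts of Y-linked genes were present in wild-type replicate 1 and in mutant replicates 2 and 3 and nearly missing elsewhere, so male and female embryos were, by these names, not balanced between the genotypes. The Y-linked genes lie outside both stretches, so their names were not checked in this way, and every split or term by sex below rests on them.

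Reads of Dlx5 and Dlx6 can be told apart although the genes are paralogues. No run of 50 bases was common to their transcripts in GENCODE M21, and the longest run holding all 4 bases that they shared had 14 bases. It lies in the coding sequence, in a window of 94 bases where 69 bases (73.4%) are identical, and is shown in capitals because it marks how far the pair can be confused by short reads.
Dlx5: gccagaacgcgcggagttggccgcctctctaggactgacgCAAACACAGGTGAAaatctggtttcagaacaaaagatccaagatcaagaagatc
Dlx6: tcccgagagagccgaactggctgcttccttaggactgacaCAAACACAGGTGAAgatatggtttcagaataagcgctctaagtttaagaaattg
Transcripts of Dlx5, Dync1i1, Sem1 and Dlx6os1 shared no run of 50 bases with any other gene. In Dlx6, 111 of 2350 such runs occurred in other genes, and all 111 were simple repeats. Exons of Dlx6 overlap those of the antisense gene Dlx6os2, whose level was too low to test, at 0.0860 ± 0.118 CPM (SD) in 3 wild-type and 0.0404 ± 0.0416 CPM in 3 mutant libraries.

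Promoter windows, from 250 bases before to 50 bases after a start, were taken from RefSeq on GRCm38.p6 for Dync1i1, Sem1 and Dlx6os1, the genes of this interval for which windows were at hand. They are shown because Dync1i1 and Dlx6os1 had lower counts in the mutant libraries while Sem1, between them, differed little. Capitals mark matches on either strand to TAATTA, the core bound by many homeodomain proteins, CCGGAA, the core of ETS factor sites, CTTTGAT, a TCF site, TATAAA, the TATA box, and GGGCGG, the GC box. The windows are chr6:5725389-5725688 (plus strand) for Dync1i1, chr6:6578609-6578908 (minus strand) for Sem1, and chr6:6869484-6869783 and chr6:6861634-6861933 (both minus strand) for the first and second start of Dlx6os1.
Dync1i1: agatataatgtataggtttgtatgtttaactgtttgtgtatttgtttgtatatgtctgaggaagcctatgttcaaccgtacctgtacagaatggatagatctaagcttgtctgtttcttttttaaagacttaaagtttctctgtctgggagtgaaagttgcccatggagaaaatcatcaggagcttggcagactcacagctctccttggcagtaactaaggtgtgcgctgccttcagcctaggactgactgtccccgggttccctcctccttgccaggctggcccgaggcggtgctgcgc
Sem1: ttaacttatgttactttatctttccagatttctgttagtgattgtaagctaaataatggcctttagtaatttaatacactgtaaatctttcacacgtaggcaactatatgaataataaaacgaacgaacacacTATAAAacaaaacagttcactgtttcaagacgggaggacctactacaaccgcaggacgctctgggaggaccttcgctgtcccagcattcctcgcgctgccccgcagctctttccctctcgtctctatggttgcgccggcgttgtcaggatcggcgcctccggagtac
Dlx6os1, first start: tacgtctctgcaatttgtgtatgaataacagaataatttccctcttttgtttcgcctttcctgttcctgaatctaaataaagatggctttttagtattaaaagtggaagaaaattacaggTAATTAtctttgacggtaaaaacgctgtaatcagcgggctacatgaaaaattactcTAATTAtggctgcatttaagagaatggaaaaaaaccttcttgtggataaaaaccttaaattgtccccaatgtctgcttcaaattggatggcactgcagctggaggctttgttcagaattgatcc
Dlx6os1, second start: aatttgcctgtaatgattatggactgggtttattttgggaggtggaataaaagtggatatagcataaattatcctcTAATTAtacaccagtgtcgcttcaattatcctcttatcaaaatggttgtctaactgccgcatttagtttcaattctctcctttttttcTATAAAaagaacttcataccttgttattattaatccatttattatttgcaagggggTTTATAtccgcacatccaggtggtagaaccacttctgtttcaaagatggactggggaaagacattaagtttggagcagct
TAATTA occurred 2 times in the first and 1 time in the second window of Dlx6os1, and in 5.3% of all 32851 windows of this length. TATAAA or its complement occurred 1 time in the window of Sem1 and 2 times in the second window of Dlx6os1, against 13.6% of all windows with a match. Neither was found in the window of Dync1i1. The ETS core, the TCF site and the GC box, present in 14.9%, 3.7% and 35.7% of all windows, were in none of these 4. A match is a stretch of letters and not a measured binding site.

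Per kilobase of exon, Sem1 was the most abundant of the 4, with 149 ± 6.54 CPM per kilobase in wild type against 129 ± 8.50 in mutants (mean ± SD of 3 libraries each, as in all such values below). Dlx5 followed at 34.7 ± 9.04 and 22.4 ± 5.88 CPM per kilobase. Dlx6 stood at 8.59 ± 2.89 and 3.44 ± 1.11 CPM per kilobase and Dync1i1 at 7.79 ± 2.42 and 2.19 ± 1.02. In wild type the levels of these 2 did not differ beyond their spread. In each mutant library Dlx6 was above Dync1i1. In mutants 1 to 3 it stood at 3.89 against 3.28, 2.18 against 1.26 and 4.27 against 2.01 CPM per kilobase. This difference was not tested. In both genotypes the order of the means was the same.

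Of the 4 genes, 2 were called lower in the mutant in the fit over all features, Dlx6 and Dync1i1, and none was called higher, while 3.67% of all tested features were called lower, 4.25% higher and 7.92% in either direction (edgeR quasi-likelihood test, adjusted p below 0.05). In 3 of the 4, all but Dlx5, the CPM of the groups did not overlap, with all mutant libraries lower. Such a pattern was shown by 16.1% of all tested features, and the opposite one by 15.8%. With the Wald test of DESeq2, 2 of the 4 were lower again, against 5.47% of all tested features. The median log2 fold change (mutant over wild type) of the 4 was -0.97, against -0.01 over all tested features.

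Dlx6, the factor that acts with Dlx5 in limb and jaw, measured 12.9 CPM in wild type 1, 21.8 in wild type 2 and 26.4 in wild type 3, and 9.23 CPM in mutant 1, 5.18 in mutant 2 and 10.1 in mutant 3. Every mutant library lay below every wild-type library, but wild-type replicate 1 was closer to the mutants than to wild-type replicate 3. Its mean went from 20.4 ± 6.87 to 8.18 ± 2.64 CPM. The log2 fold change was -1.31 with an SE of 0.31, and edgeR gave an adjusted p of 0.0413. The call was lost in 4 of the 6 fits that left out 1 library. The adjusted p of edgeR was 0.156 without wild-type replicate 2 and 0.138 without wild-type replicate 3. It was 0.0907 without mutant replicate 1 and 0.0728 without mutant replicate 2. Calls were lost over the whole table too: in these fits 63, 151, 259 and 393 features were lower, against 534 with all libraries. Limma-voom gave an adjusted p of 0.0577. In bulk tissue, fewer cells with a transcript and less of it per cell cannot be told apart, here and for the genes below.

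Dlx5, the more abundant of the pair, measured 54.8 CPM in wild type 1, 90.2 in wild type 2 and 90.4 in wild type 3, and 58.3 CPM in mutant 1, 35.2 in mutant 2 and 58.3 in mutant 3. The groups overlapped, since wild-type replicate 1 lay below mutant replicates 1 and 3, while wild-type replicates 2 and 3 lay above all mutants. Its means were 78.5 ± 20.5 and 50.6 ± 13.3 CPM. The log2 fold change of -0.63, with an SE of 0.24, did not pass the test over all features, where edgeR gave an adjusted p of 0.148. It missed the threshold in each of the 6 fits that left out 1 library, with log2 fold changes from -0.82 to -0.42.

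Dlx6os1, also known as Evf2, is an RNA that takes part in regulating the Dlx genes in the developing forebrain. It measured 4.66 CPM in wild type 1, 7.51 in wild type 2 and 11.0 in wild type 3, and 3.74 CPM in mutant 1, 3.10 in mutant 2 and 3.81 in mutant 3. The mutant libraries lay close together and below all wild-type libraries, of which replicate 1 was again the lowest. With a log2 fold change of -1.11 and an SE of 0.31 it missed the threshold of edgeR with all libraries (adjusted p = 0.0628) and passed it without wild-type replicate 1 (adjusted p = 0.0238). The exons of Dlx6os1 and Dlx6 do not overlap in GENCODE M21, although an intron of the first spans the second.

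Dync1i1 had the largest difference of the 4, with 19.5 CPM in wild type 1, 27.3 in wild type 2 and 36.7 in wild type 3, and 11.7 CPM in mutant 1, 4.50 in mutant 2 and 7.20 in mutant 3. All mutant libraries lay below all wild-type libraries. Its mean went from 27.8 ± 8.65 to 7.81 ± 3.65 CPM. The log2 fold change was -1.82 with an SE of 0.35, and edgeR gave an adjusted p of 0.021. The call ended without wild-type replicate 2 (adjusted p = 0.0902) and without wild-type replicate 3 (adjusted p = 0.0789), with log2 fold changes of -1.84 and -1.56. Over the whole table, 63 and 151 features were called lower in these fits, against 534 with all libraries.

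Sem1, the proteasome subunit, was steady by comparison. It measured 503 CPM in wild type 1, 539 in wild type 2 and 546 in wild type 3, and 490 CPM in mutant 1, 438 in mutant 2 and 439 in mutant 3. The groups were apart by a small margin, with mutant replicate 1 just below wild-type replicate 1. The log2 fold change of -0.22 ± 0.08 (SE) did not pass the test (adjusted p = 0.127 by edgeR). Slc25a13, on the other side of Sem1 from the Dlx genes, ranged from 378 to 457 CPM in wild type and from 290 to 406 CPM in the mutant, so that the groups overlapped. Its log2 fold change was -0.21 with an SE of 0.13 and an adjusted p of 0.372 by edgeR.

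**Figure D1:**
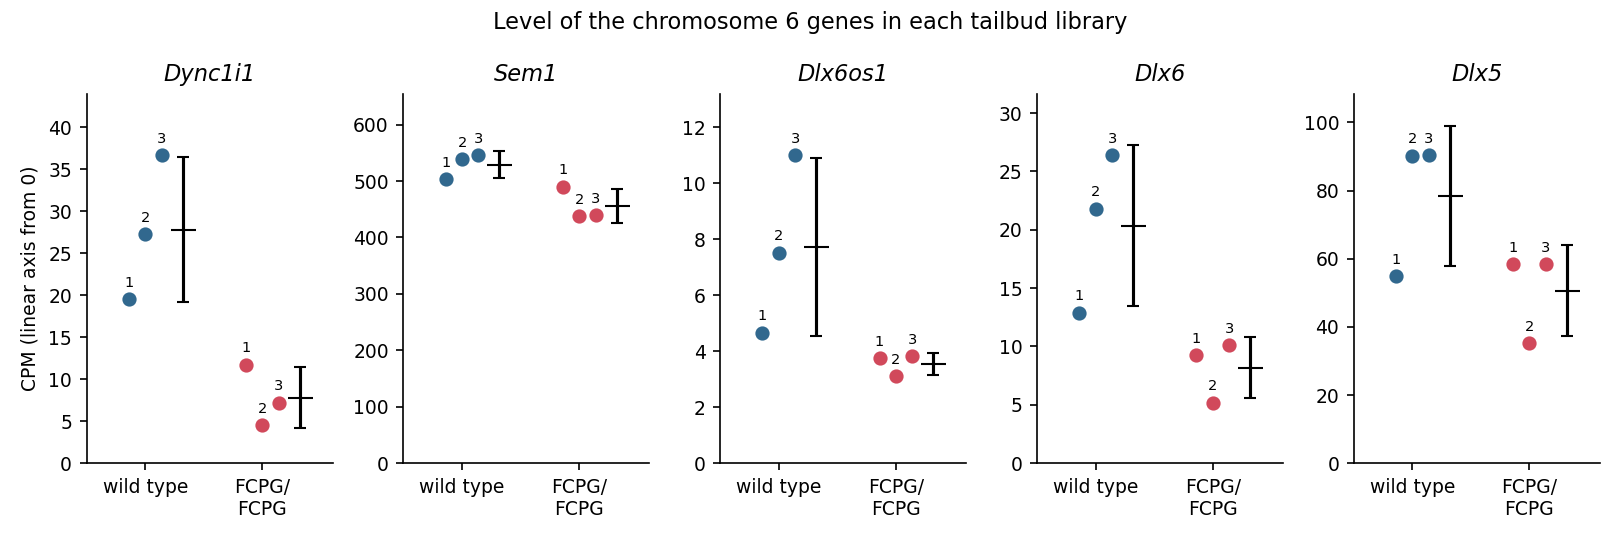
CPM of Dync1i1, Sem1, Dlx6os1, Dlx6 and Dlx5 in 3 wild-type (blue) and 3 Fgfr1 FCPG/FCPG (red) libraries on linear axes from 0; numbers are replicates and black marks are means with SD. The groups are apart for all but Dlx5, where wild-type replicate 1, at 54.8 CPM, lies below 2 mutant libraries at 58.3 CPM.

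In the authors' deposited table, made with DESeq2, Dync1i1 had a log2 fold change of -1.82 (adjusted p = 3.16e-07), Dlx6 of -1.30 (adjusted p = 0.000269) and Dlx6os1 of -1.11 (adjusted p = 0.00745). In the authors' deposited table, 5.39% of the features with an adjusted p were lower by this measure. Dlx5, with -0.62 (adjusted p = 0.0543), and Sem1, with -0.21 (adjusted p = 0.216), did not pass in the authors' deposited table either. Fold changes of the 2 sources were thus nearly the same, and their adjusted p differed.

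Whether the neighbours vary together was examined within each genotype, which the contrast of genotypes does not use. Each library's log2 CPM was set against the mean of its own genotype. In wild-type replicate 1 all 4 genes lay below that mean, Dlx6 by 0.59, Dlx5 by 0.48, Dync1i1 by 0.47 and Sem1 by 0.07 on the log2 scale. In mutant replicate 2 all 4 lay below it again, Dync1i1 by 0.68, Dlx6 by 0.59, Dlx5 by 0.48 and Sem1 by 0.06. The other libraries lay above it with a single kind of exception: in mutant replicate 3 the deviation was 0.36 for Dlx6 and 0.24 for Dlx5, but -0.01 for Dync1i1 and -0.05 for Sem1.

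**Figure D2:**
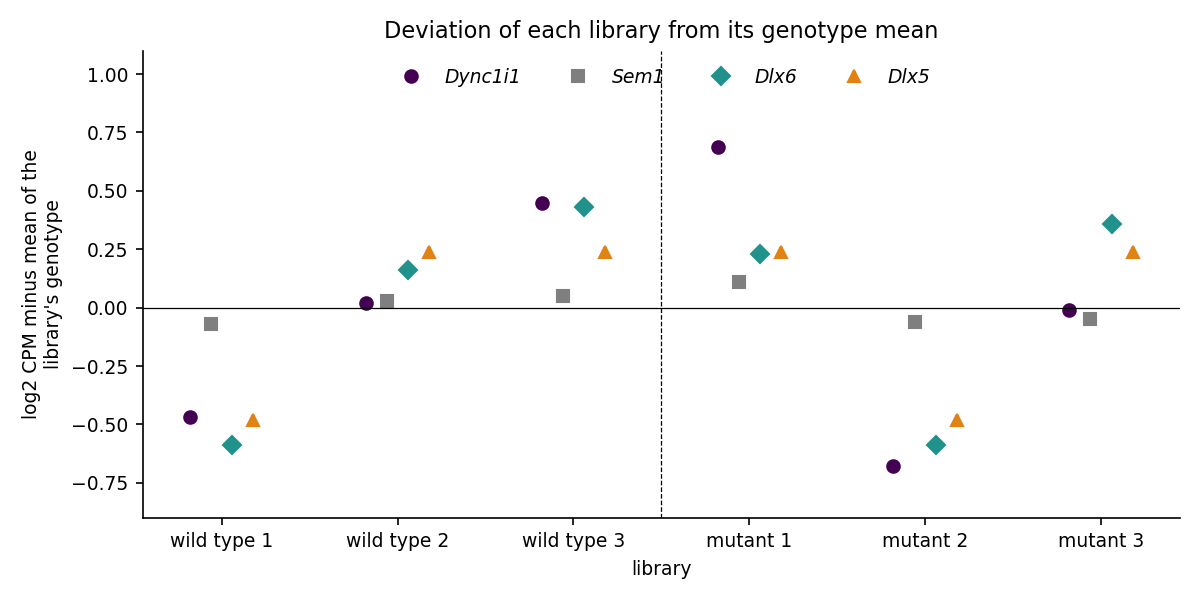
Deviation of log2 CPM from the mean of the library's own genotype for Dync1i1, Sem1, Dlx6 and Dlx5 in each of the 6 libraries, which have no order within a genotype. All 4 genes lie below 0 in wild-type replicate 1 and mutant replicate 2, and Sem1 stays within 0.11 of 0 throughout.

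As a description over the 6 deviations, of which 2 are fixed by the group means, Pearson's r was 0.98 for Dlx5 and Dlx6, 0.90 for Dync1i1 and Sem1, 0.85 for Dlx5 and Dync1i1, 0.84 for Dlx6 and Dync1i1, 0.70 for Dlx5 and Sem1 and 0.64 for Dlx6 and Sem1. Of the 14549 other tested features, 32 had a higher r with Dlx5 than Dlx6 had, 343 a higher r with Dync1i1 than Sem1 had, and 728 a higher r with Dlx6 than Dync1i1 had. For Dync1i1 with Dlx5 the number was 594. For Sem1 it was 1680 with Dlx5 and 2261 with Dlx6, so an r of that size was common among the features. For Slc25a13, the r of deviations was 0.93 with Dlx5, 0.93 with Dlx6, 0.92 with Dync1i1 and 0.69 with Sem1. A higher r than that of Slc25a13 was shown by 212 features with Dlx5, 228 with Dlx6, 235 with Dync1i1 and 1321 with Sem1. For Dlx6os1 the r was 0.79, 0.86, 0.71 and 0.61 in the same order, with 996, 656, 1629 and 1900 features higher. Sdhaf3, an assembly factor of mitochondrial complex II that is the nearest gene beyond Dlx5, had an r of -0.08 with Dlx5, -0.20 with Dlx6, 0.15 with Dync1i1 and 0.56 with Sem1. Tac1, the next gene, had an r of -0.12 with Dlx5, -0.14 with Dlx6, 0.40 with Dync1i1 and 0.56 with Sem1.

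The low libraries stood apart in other measures too. On the first principal component of all features, which took 50.5% of the variance, wild-type replicate 1 lay at -18.1, closest to the mutants, against -40.5 and -55.6 for replicates 2 and 3. Mutant replicate 2 lay at 51.6, farthest from wild type, against 30.1 and 32.5 for mutant replicates 1 and 3. Both low libraries also carried Y-linked transcripts. Among the libraries with such transcripts, the level of Dlx6 was 12.9 CPM for wild type against 5.18 and 10.1 CPM for mutants, and among those without it was 21.8 and 26.4 CPM against 9.23 CPM. Dync1i1 stood at 19.5 CPM against 4.50 and 7.20 CPM, and at 27.3 and 36.7 CPM against 11.7 CPM. For both genes all mutant libraries lay below all wild-type libraries, so any split gives lower mutant values and this one decides nothing about sex. Dlx5 overlapped among the libraries with Y-linked transcripts, at 54.8 CPM against 35.2 and 58.3 CPM. Among the others Dlx5 lay at 90.2 and 90.4 CPM against 58.3 CPM. With a term for embryo sex the log2 fold change was -1.58 for Dync1i1 (adjusted p = 0.0156 by edgeR), -1.06 for Dlx6 (adjusted p = 0.0933) and -0.43 for Dlx5 (adjusted p = 0.277).

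The ratio of counts of 2 genes within a library does not depend on how libraries are scaled. The log2 ratio of Dlx5 to Dlx6 was 2.08, 2.05 and 1.77 in wild-type replicates 1 to 3 and 2.66, 2.77 and 2.52 in mutant replicates 1 to 3. It was higher in every mutant library, with means of 1.97 ± 0.17 and 2.65 ± 0.12, so Dlx6 was lower relative to Dlx5 in all mutants. Within each genotype this ratio varied less than either gene did.

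Relative to Sem1, Dync1i1 had a log2 ratio of -4.69, -4.30 and -3.89 in wild type and of -5.39, -6.60 and -5.93 in the mutant, again without overlap. Relative to the same gene, Dlx6 had -5.28, -4.63 and -4.37 in wild type and -5.73, -6.40 and -5.44 in the mutant. The ratio of Dlx6 to its antisense neighbour Dlx6os1 overlapped between the groups, with means of 1.42 ± 0.14 and 1.15 ± 0.36. That of Dlx6 to Dync1i1 overlapped too, with -0.46 ± 0.13 and 0.12 ± 0.43. These ratios are descriptions and were not tested.

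**Figure D3:**
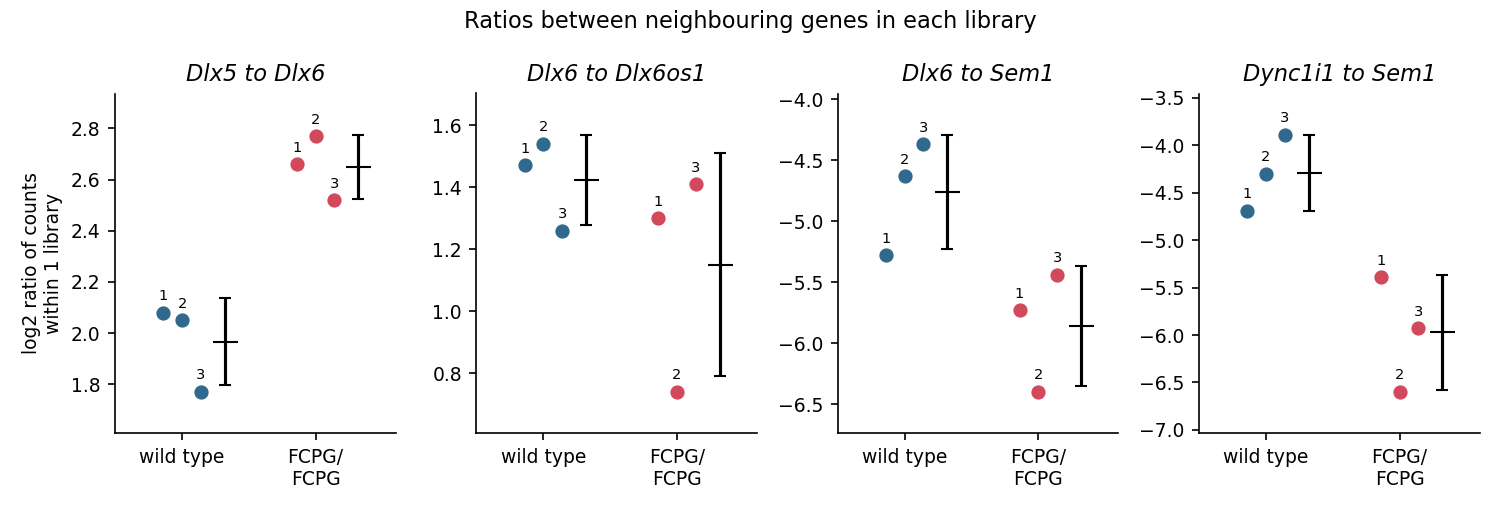
Log2 ratio of counts of 2 genes within a library, by genotype, with replicate numbers and with means and SD in black; axes do not start at 0. Dlx5 to Dlx6 lies between 1.77 and 2.08 in wild type and between 2.52 and 2.77 in the mutant, and Dlx6 to Dlx6os1 overlaps between the groups.

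Along the chromosome, the 4 genes formed part of a row of 6 neighbouring tested genes with negative log2 fold changes, from Dync1i1 over Slc25a13, Sem1, Dlx6os1 and Dlx6 to Dlx5, which ran from -1.82 to -0.21 with a median of -0.87. Of these 6, 2 were called lower (3.67% of all tested features), and in 4 the CPM of the groups did not overlap with mutants lower (16.1%). Both called genes, Dlx6 and Dync1i1, were picked with their lower counts known, so nothing is read from these counts. The row was extended from Dync1i1 while log2 fold changes stayed negative, so its shared sign, negative median and ends follow from that rule. Pdk4, a kinase of pyruvate dehydrogenase that precedes Dync1i1, had means of 1.25 ± 0.228 and 1.83 ± 0.797 CPM, with an adjusted p of 0.429 by edgeR. Sdhaf3, which follows Dlx5, measured 38.9 to 42.4 CPM among wild-type and 35.9 to 43.8 CPM among mutant libraries. Its log2 fold change was 0.01 with an SE of 0.11 and an adjusted p of 0.95 by edgeR. Tac1, which encodes the precursor of substance P, was near the limit of testing, with 1.30 ± 0.242 and 1.69 ± 0.730 CPM.

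A list of other genes on either side had 36 members. On this chromosome 34 of them, from Calcr to Vwde, were found, and 29 could be tested. Of these 29, 8 were higher and 4 lower in the mutant. Their median log2 fold change was 0.22, against 0.07 over the 511 tested features of the readable stretches. Of those 511, 49 were higher and 26 lower, and of all tested features 4.25% were higher and 3.67% lower. When wild-type replicate 2 was left out, 1 of the listed neighbours, Peg10, was higher and 0 were lower. Of all 14990 features tested in that fit, 66 were higher and 63 lower. Leaving out wild-type replicate 3 gave 3 higher and 0 lower neighbours, beside 163 higher and 151 lower of all 15199 features tested. With all libraries, the lower neighbours were Tfpi2, a protease inhibitor (-1.25 ± 0.25 SE), the paraoxonases Pon3 (-0.87 ± 0.15) and Pon2 (-0.59 ± 0.14), and C1galt1, an enzyme of O-glycosylation (-0.43 ± 0.11). Those higher were the imprinted genes Peg10 (1.59 ± 0.18), Asb4 (1.50 ± 0.23), Sgce (0.87 ± 0.12) and Ppp1r9a (0.54 ± 0.13), the collagen chain Col1a2 (1.57 ± 0.36), Thsd7a (1.44 ± 0.24), Mios (0.55 ± 0.10), which acts in nutrient sensing by mTORC1, and Phf14 (0.33 ± 0.08). Called neighbours thus went in both directions. Asb4, the nearest called gene on the side of Dync1i1, went from 70.6 ± 20.8 to 200 ± 40.3 CPM. Among the deviations from the genotype means, Asb4 had an r of -0.79 with Dlx5, -0.90 with Dlx6, -0.78 with Dync1i1 and -0.54 with Sem1. Of the 14549 other tested features, 13583, 14137, 13406 and 11874 had a higher r with these 4 genes, in this order.

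**Figure D4:**
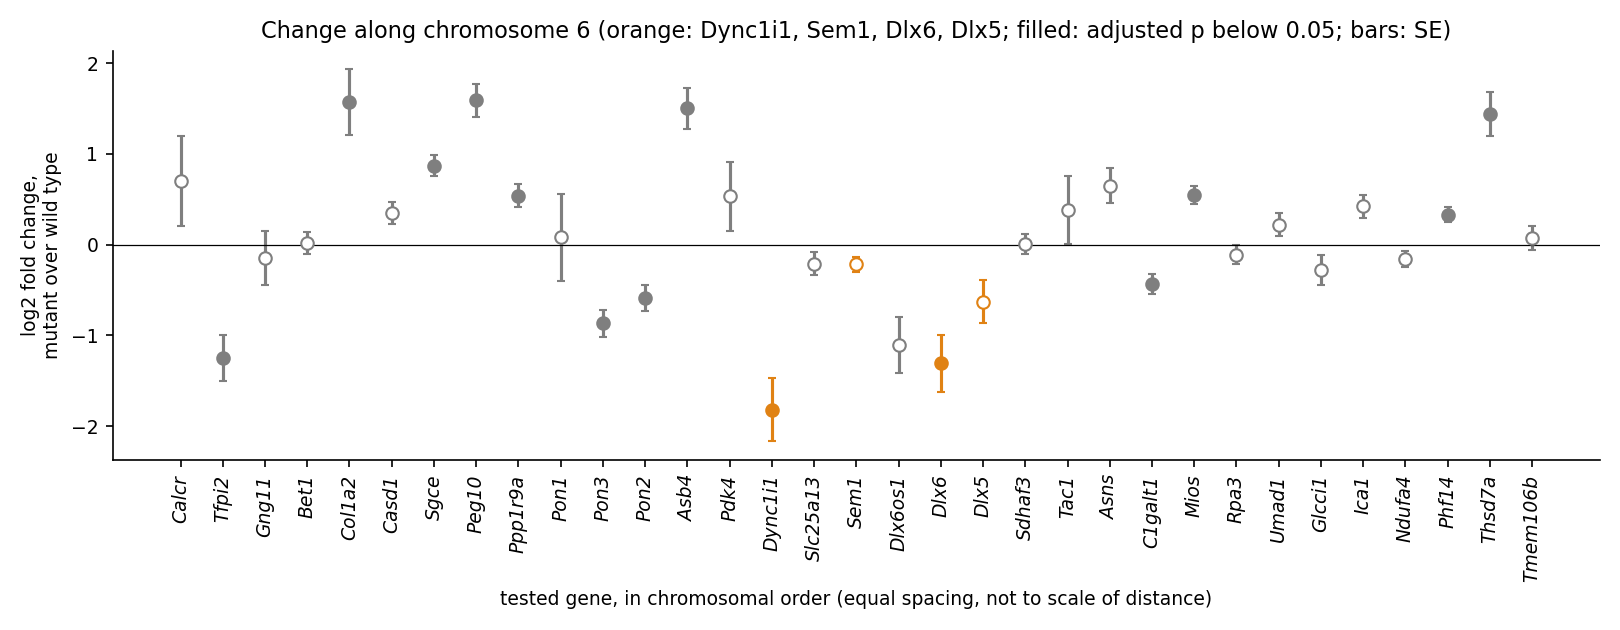
Log2 fold change, mutant over wild type, with SE, for the 33 tested genes from Calcr to Tmem106b in chromosomal order at equal spacing; Dync1i1, Sem1, Dlx6 and Dlx5 are orange and genes with an adjusted p below 0.05 are filled. The 6 genes from Dync1i1 to Dlx5, a row bounded by the sign of the fold change, lie below 0, between Pdk4 and Sdhaf3.

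Genes with the most similar pattern over the 6 libraries were sought among 311 tested genes of the readable stretches with a mean of at least 5 CPM, by Pearson's r of log2 CPM. This r contains the difference between genotypes and is given as a description. For Dlx5 the closest were Tbc1d2, a GTPase-activating protein of Rab proteins (r = 0.978), Glcci1 (r = 0.969) and Dlx6 (r = 0.963). For Dlx6 they were Tbc1d2 (r = 0.990), Ndufaf4, an assembly factor of complex I (r = 0.985), and Glcci1 (r = 0.981). For Dync1i1 they were the small GTPase Arf5 (r = 0.976), the sialic acid synthase Nans (r = 0.976) and Sem1 (r = 0.975), and for Sem1 they were Arf5 (r = 0.985), Rpp25l (r = 0.978) and Lpar1, a receptor for lysophosphatidic acid (r = 0.976). Similar order did not mean similar size: Tbc1d2 stood at 15.0 ± 3.22 and 8.81 ± 2.16 CPM, with a log2 fold change of -0.76 (SE 0.23), and Arf5 at 404 ± 12.1 and 371 ± 14.2 CPM, with -0.12 ± 0.07. Of these genes outside the 4, Nans was called lower, at a log2 fold change of -0.47 (SE 0.11) and an adjusted p of 0.037 by edgeR. This call is one that 5 of the 6 fits without 1 library did not give.

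Few genes of the same pathways could be read by name. Of 6 other Distal-less family genes only Dlx6os1 lay in the readable stretches, and of 25 genes of the limb bud and its ectodermal ridge, 17 subunits of the proteasome regulatory particle and 4 other partners of Sem1 none did. Of 20 subunits of dynein and dynactin 1 did: Dctn3, a dynactin subunit, stood at 110 ± 5.53 and 137 ± 4.83 CPM, with a log2 fold change of 0.32, an SE of 0.08 and an adjusted p of 0.0525 by edgeR. Of the 2 tested members of these lists 0 passed the test, while 7.92% of all tested features did, so nothing is read from this count. The other partners of these 4 genes were not analysed here.

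Levels of markers of other cell types were examined beside the Dlx genes. Of 12 markers of surface ectoderm and epithelium, the splicing factor Esrp1 could be read. It measured 136 CPM in wild type 1, 165 in wild type 2 and 174 in wild type 3, and 102 CPM in mutant 1, 71.5 in mutant 2 and 126 in mutant 3. The groups did not overlap, but the log2 fold change of -0.67 (SE 0.19) missed the threshold of edgeR (adjusted p = 0.073). Within either genotype its libraries had the same order as those of Dlx6. The r of deviations was 0.91 with Dlx6, 0.89 with Dlx5, 0.68 with Dync1i1 and 0.36 with Sem1. With Dlx6, 333 of the 14549 other tested features had a higher r than Esrp1. With Dlx5, Dync1i1 and Sem1 the numbers were 407, 1862 and 4014. The part of epithelial cells in the lower counts of Dlx6 was not tested.

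Of 10 primitive erythroid markers, 4 could be read and 3 tested, of which 2 fell, while 3.67% of all tested features were called lower. Hemgn, which acts in the nuclei of hematopoietic cells, fell by 2.26 on the log2 scale. It ranged from 62.8 to 103 CPM among wild-type and from 10.7 to 22.4 CPM among mutant libraries. Its deviations had an r of -0.51 with those of Dlx6, -0.43 with Dlx5, 0.01 with Dync1i1 and 0.23 with Sem1. Tspan33 fell by 1.27 on the log2 scale, Tmod1 had a log2 fold change of -0.80 with an SE of 0.40 and an adjusted p of 0.249 by edgeR, and Bpgm was at 0.0674 and 0.0315 CPM. Of 6 neural markers, Pou3f2 could be read and was higher in the mutant, at 11.7, 7.21 and 4.23 CPM against 49.8, 306 and 20.8 CPM (adjusted p = 0.0411 by edgeR, and from 0.0116 to 0.167 when 1 library was left out). Of 4 markers of mesenchyme and skeletal precursors, Col1a2 could be read, at 167, 211 and 219 CPM against 283, 924 and 574 CPM. In both genes mutant replicate 2, the library with the lowest Dlx5, Dlx6 and Dync1i1, was the highest. Among wild-type libraries, replicate 1, also with the lowest Dlx5, Dlx6 and Dync1i1, had the highest Pou3f2 but the lowest Col1a2. Deviations of Col1a2 had an r of -0.39 with Dlx5, -0.32 with Dlx6, -0.68 with Dync1i1 and -0.61 with Sem1. Of the 14549 other tested features, 10108, 9405, 12632 and 12400 had a higher r, in that order. The part of these cell types in the values of the Dlx genes was not tested.

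Fold changes of the 4 genes kept their direction in all 15 alternative fits. For Dlx6 they ran from -1.54 to -1.06 and for Dync1i1 from -2.22 to -1.54 when 1 library was left out. Sem1 kept between -0.26 and -0.18 and missed the threshold in each.

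**Figure D5:**
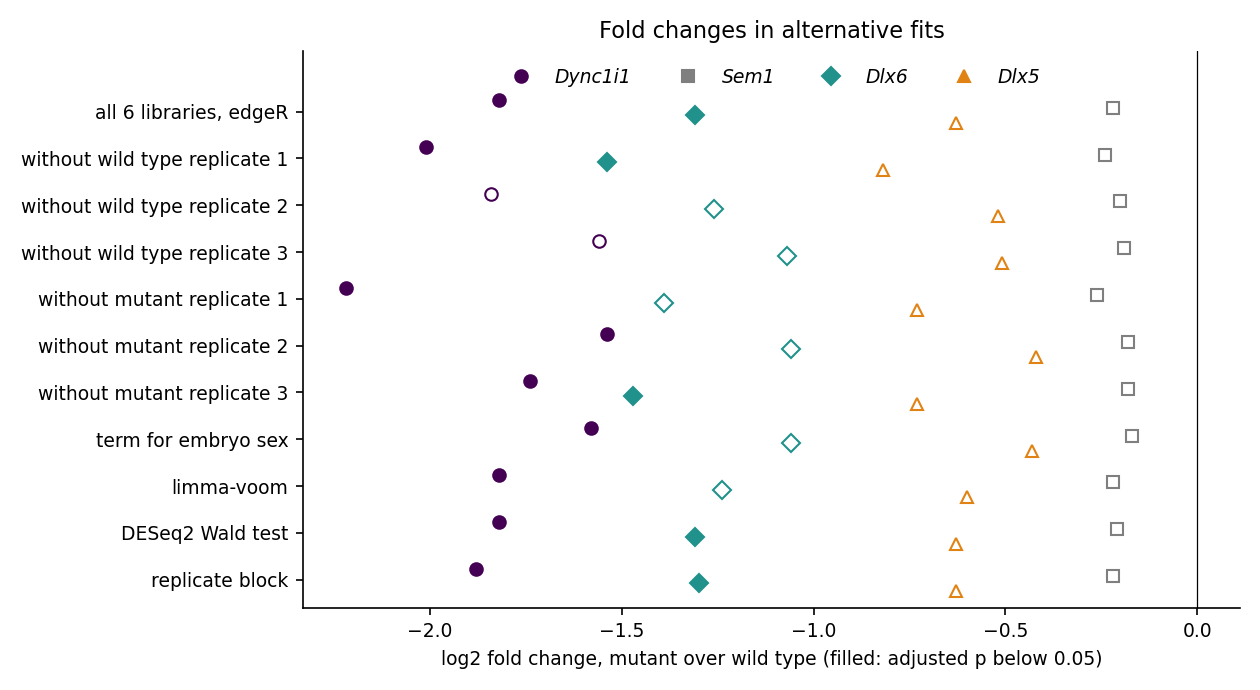
Log2 fold changes of Dync1i1, Sem1, Dlx6 and Dlx5 with all libraries, without each library in turn and in 4 other fits; filled symbols have an adjusted p below 0.05. All symbols lie below 0, and Dync1i1 lies farthest from it in each fit.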

How the data were processed

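Polyadenylated RNA of 6 tailbud libraries was sequenced with a stranded kit, per the labels' protocols. The build mm39, featureCounts, Bowtie, DESeq and DESeq2 are listed per the submitters' processing notes, without versions. Annotation and strand setting are not given in the sources used here. Whole-number raw counts per gene were deposited. The authors also deposited a table with the mean normalized count (a signal), log2 fold changes with standard errors, the Wald score, p-values and adjusted p-values, per the file headers. Column names carry 10-5, which is not explained; the labels' day 9.5 is used. IDs were cut to 18 characters and 52029 of 56953 matched a symbol.

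The 4 genes and all lists were chosen with earlier results of these data known. Names count as readable in runs of at least 6 ubiquitous genes by a hidden Markov model with 2 states (detection chance 0.95 or 0.25, switch 0.03, posterior above 0.95), whose gene list was made after seeing the data. Gene order and exon lengths are from GENCODE M21, an older build than mm39, so no gene coordinates are given. Promoter windows are RefSeq's on GRCm38.p6.

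Tests were quasi-likelihood F tests of edgeR 4.0.16 in R 4.3.3 (filterByExpr, TMM, no covariate), with Benjamini-Hochberg adjustment over all tested features. CPM use TMM-scaled library sizes, and log2 CPM a prior count of 2. On simulated counts (14550 features), the test found 87 of 100 features with a 2-fold and 100 of 100 with a 4-fold change. Of its calls, 5.56% were false. Changed features had a mean of at least 5 CPM. Simulated spread between libraries followed the trend with level fitted over all features, without effects of sex or of single libraries. These numbers therefore do not give the recovery of Dlx6 or other single genes in the real libraries. Alternatives used DESeq2 1.42.0 and limma 3.58.1, other filters, a replicate block, a sex term, other library sizes, a minimum fold change and each library left out. Named were the 4 genes, called chromosome 6 neighbours and the nearest 4, the 3 most similar genes per member, and up to 3 readable genes per list. Bpgm and Pdk4 are named beside these, chosen after their values were seen. Labels do not say that libraries are separate litters, so p-values measure the spread between these libraries only.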

Additional observations from a re-analysis of the deposited data

How the results depend on the processing

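Leaving out 1 library moved Dlx5 between -0.82 and -0.42, Dlx6 between -1.54 and -1.06, Dync1i1 between -2.22 and -1.54 and Sem1 between -0.26 and -0.18 (log2 fold change, mutant over wild type). Of the 4 genes, 0 to 2 were then called lower, and 0 both without wild-type replicate 2 and without wild-type replicate 3. Dlx6 lost its call with limma-voom (-1.24, adjusted p = 0.0577), with the term for embryo sex (-1.06, adjusted p = 0.0933) and against a log2 fold change of 0.5 (-1.31, adjusted p = 0.188), which also ended that of Dync1i1 (-1.82, adjusted p = 0.0687). The number of the 4 called lower was thus 1, 1 and 0 in these fits. Without a low-count filter Dlx5 passed (-0.61, adjusted p = 9.71e-05). The cause was not tested.

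Over all features, 618 were higher and 534 lower; the counts were 967 higher with the DESeq2 Wald test, 1352 and 1145 with no low-count filter, 94 and 122 against a log2 fold change of 0.5, 273 and 264 with the sex term, and 66 to 783 and 63 to 565 without 1 library. Of the chromosome 6 neighbours, 8 were higher and 4 lower, but 2 and 0 against a log2 fold change of 0.5, 5 and 2 with the sex term, and 1 to 9 and 0 to 4 without 1 library. Peg10 kept its call in all fits run. C1galt1 lost it without any 1 library, Pon2 and Phf14 in 5 of 6 such fits, Ppp1r9a and Col1a2 in 4, Tfpi2 in 3, Pon3, Mios and Thsd7a in 2, Sgce and Asb4 in 1. All 11 lost it without wild-type replicate 2. The uncalled fold change of Sdhaf3 turned to -0.02 with the filter of 5 CPM in 3 libraries and to -0.0038, -0.03 and -0.01 without wild-type replicate 1, mutant replicate 1 or mutant replicate 2 (range to 0.11), and that of Tac1 to -0.01 without mutant replicate 1 (range to 0.65).

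Libraries with the same number showed no shared deviation, with correlations of -0.23, -0.01 and -0.01. The replicate block gave 433 higher and 411 lower features, and 1 of the chromosome 6 neighbours was lower; Dlx6 (-1.30) and Dync1i1 (-1.88) kept their calls. Without 1 library, the r of deviations ran from 0.96 to 0.99 for Dlx5 and Dlx6, 0.70 to 0.93 for Dlx5 and Dync1i1, 0.52 to 0.98 for Dlx5 and Sem1, 0.69 to 0.98 for Dlx6 and Dync1i1, 0.42 to 0.97 for Dlx6 and Sem1 and 0.78 to 0.98 for Dync1i1 and Sem1. With 3 libraries per genotype, differences of the size seen for Sem1 and Dlx5 may be missed.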
